A study of Mus musculus with 9 samples.

Results

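The immunoglobulin variable segments (V segments) of mouse back skin were described in 9 RNA libraries. Members were chosen by name and by level: rows of the table of FPKM values whose gene name starts with Ighv, Igkv or Iglv, and whose counts summed over the 9 libraries reached at least 20. This gave 158 segments of 205 rows with such a name, out of 34637 genes in that table. They were 81 heavy chain segments on chromosome 12, 74 kappa segments on chromosome 6 and 3 lambda segments on chromosome 16. The sum over all libraries chose the members, and the contrast between groups did not.

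All 9 libraries came from male C57BL/6 mice, aged 6 to 8 weeks when divided into groups, before the DNCB course. Their shaved back skin was sensitized with 1% DNCB (2,4-dinitrochlorobenzene, a contact allergen) on day 1. It was challenged with 0.5% DNCB from day 4 to day 21. Model mice carried the treatment label No, and all mice had free access to water. FJDHF mice received Fangji Dihuang formulation, a herbal formulation, at the medium dose by mouth every day after day 7 until collection on day 28. No library here came from unsensitized skin, so levels in normal skin were not analysed here. The 5 libraries with codes starting MR were taken as FJDHF and the 4 starting MXL as Model, because the group sizes match and MX abbreviates the Chinese for model. This assignment is an assumption on which every direction below rests. No code was tied to an individual mouse, and MR3_4, MXL12 and similar codes may or may not mark pooled mice, so p-values measure only the spread between these libraries.

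B lymphocytes build the variable part of an antibody by joining a V segment to short D and J segments of the heavy chain, or to a J segment of the kappa or lambda light chain. Each B cell mostly keeps a single heavy and a single light rearrangement, and its descendants inherit them. Plasma cells, the antibody-secreting descendants, transcribe the joined segments at very high rates, so a few such cells can supply much of the V segment RNA of a tissue. In bulk skin, fewer cells of a clone and less RNA per cell cannot be told apart.

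The germline sequences of 7 members that carry the results follow, from the GENCODE M21 transcripts of GRCm38 (mm10). They are the last bases of the V exon, 5′ to 3′ on the coding strand, with capitals from the conserved cysteine codon near the 3′ end to the end of the segment, the germline start of the third complementarity-determining region. All are on the minus strand except Igkv14-126 and Igkv3-2. The lambda pair is shown because its members differ little while their use differed between libraries, Igkv3-2, Igkv14-126 and Ighv11-2 because they were even across libraries, and Ighv9-4 and Igkv5-43 because 1 library held most of each. Ighv11-2 was picked for display after its values were seen.
Iglv1: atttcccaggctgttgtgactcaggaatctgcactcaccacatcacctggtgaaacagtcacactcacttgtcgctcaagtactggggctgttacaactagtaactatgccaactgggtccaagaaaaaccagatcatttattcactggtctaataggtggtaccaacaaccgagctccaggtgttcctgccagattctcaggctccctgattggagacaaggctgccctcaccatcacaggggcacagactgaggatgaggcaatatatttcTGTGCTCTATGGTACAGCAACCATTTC
Iglv2: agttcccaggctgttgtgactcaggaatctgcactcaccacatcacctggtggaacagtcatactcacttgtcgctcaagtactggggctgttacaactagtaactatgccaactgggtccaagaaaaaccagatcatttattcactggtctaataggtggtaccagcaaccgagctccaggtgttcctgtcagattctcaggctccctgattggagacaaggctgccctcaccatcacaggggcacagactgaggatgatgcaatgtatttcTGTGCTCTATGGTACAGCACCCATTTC
Igkv3-2: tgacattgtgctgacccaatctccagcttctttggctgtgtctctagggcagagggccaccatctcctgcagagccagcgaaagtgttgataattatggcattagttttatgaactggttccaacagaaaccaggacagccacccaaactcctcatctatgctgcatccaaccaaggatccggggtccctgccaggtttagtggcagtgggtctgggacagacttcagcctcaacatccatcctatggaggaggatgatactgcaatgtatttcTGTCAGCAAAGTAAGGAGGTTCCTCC
Igkv14-126: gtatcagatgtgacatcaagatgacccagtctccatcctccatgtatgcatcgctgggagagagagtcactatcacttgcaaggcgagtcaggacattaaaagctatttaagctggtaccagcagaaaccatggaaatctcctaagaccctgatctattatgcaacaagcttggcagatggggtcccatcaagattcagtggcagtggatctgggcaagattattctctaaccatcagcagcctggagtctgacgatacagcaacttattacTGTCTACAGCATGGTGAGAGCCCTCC
Ighv11-2: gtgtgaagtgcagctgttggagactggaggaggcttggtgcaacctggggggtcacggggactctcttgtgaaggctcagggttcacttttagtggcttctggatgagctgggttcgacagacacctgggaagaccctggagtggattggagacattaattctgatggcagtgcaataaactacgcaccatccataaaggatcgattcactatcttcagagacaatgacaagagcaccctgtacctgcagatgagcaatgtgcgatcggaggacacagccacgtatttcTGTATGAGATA
Ighv9-4: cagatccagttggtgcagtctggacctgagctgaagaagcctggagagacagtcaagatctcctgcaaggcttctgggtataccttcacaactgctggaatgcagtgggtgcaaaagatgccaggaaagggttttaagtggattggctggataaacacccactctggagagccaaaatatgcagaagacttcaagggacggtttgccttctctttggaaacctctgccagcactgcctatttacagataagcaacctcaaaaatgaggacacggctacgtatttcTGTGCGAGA
Igkv5-43: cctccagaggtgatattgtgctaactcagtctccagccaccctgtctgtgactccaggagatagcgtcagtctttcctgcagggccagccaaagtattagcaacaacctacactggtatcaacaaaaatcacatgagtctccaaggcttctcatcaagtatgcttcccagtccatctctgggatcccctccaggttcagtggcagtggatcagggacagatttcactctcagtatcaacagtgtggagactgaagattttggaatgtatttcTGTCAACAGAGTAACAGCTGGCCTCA
The printed stretches lie at chr16:19085017-19085316 for Iglv1, chr16:19260401-19260700 for Iglv2, chr6:70698768-70699067 for Igkv3-2, chr6:67896345-67896642 for Igkv14-126, chr12:114048241-114048540 for Ighv11-2, chr12:114299961-114300254 for Ighv9-4 and chr6:69823355-69823652 for Igkv5-43. The V exons of Iglv1 and Iglv2 differed by 11 edits (96.4% identity), with a longest shared run of 104 bases. Over all 158 members, the closest other segment of the locus had a median identity of 94.6%, and 12 members shared at least 1 window of 150 bases with another V gene. Ighv1-71 and Ighv1-62-2, named for this reason after the values were seen, were identical over the whole V exon, so counts of such close copies are uncertain.

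V segment RNA was a small and uneven part of each library. The 158 members held 56336 counts in all, and total counts per library lay between 74648669 and 79474215. Summed over members, the 5 MR libraries held 88.2, 26.0, 80.9, 42.8 and 98.5 CPM (counts scaled to the library total) in MR1, MR3, MR3_4, MR4_5 and MR5, and the 4 MXL libraries held 45.4, 52.3, 72.5 and 233.0 CPM in MXL1, MXL12, MXL3_4 and MXL_3. The groups overlapped, with MXL_3 highest and MR3 lowest of all 9. The highest library held 8.95 times the lowest, and 2.37 times the next, MR5. The mean was 67.3 ± 31.2 CPM (SD, n = 5) in MR and 101 ± 88.9 CPM (SD, n = 4) in MXL, while the medians had the opposite order, 80.9 CPM in MR and 62.4 CPM in MXL. The difference of medians was 0.39 on the log2 scale, with a range of -0.07 to 0.63 over the fits lacking a library, and it fell below 0 without MR1, MR3_4 or MR5.

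**Figure D1:**
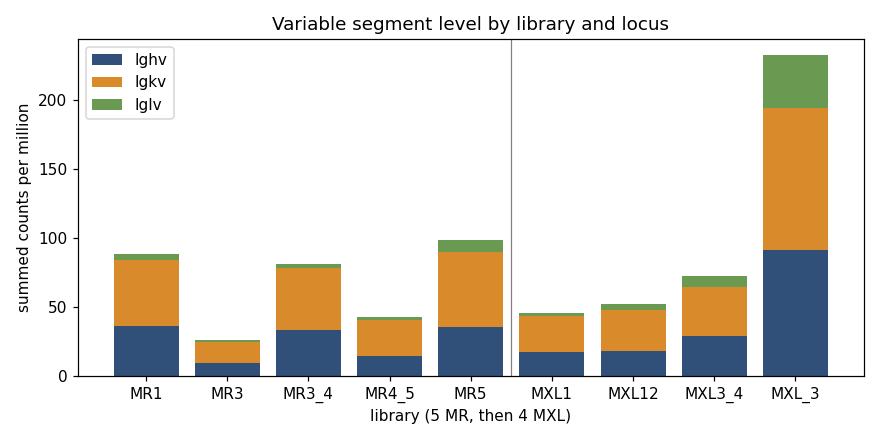
Summed CPM of the V segments in each library (x axis), stacked by locus. The 4 MXL bars span 45.4 to 233.0 CPM and the 5 MR bars span 26.0 to 98.5 CPM, so the groups overlap.

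The 3 loci kept similar proportions except for lambda. Heavy chain segments held 34.3% to 40.9% of the V counts of each library. Kappa V counts were 60.2 to 73.1 per 100 counts of Igkc, the kappa constant region. Heavy chain V counts varied more against Ighm, the IgM constant region, from 7.41 (MR3) to 23.6 (MXL_3) per 100 Ighm counts. That ratio leaves out the IgA and IgG constant regions, so it is not like the kappa ratio. Igha, the IgA constant region, had 645 counts in MR3 and 7200 in MXL_3. Lambda segments held 5.87% to 13.2% of light chain V counts in the MR libraries. In the MXL libraries the share was 6.89% in MXL1, 14.2% in MXL12, 18.5% in MXL3_4 and 27.3% in MXL_3. The groups overlapped, with MXL1 among the MR libraries. By constant regions, the lambda share of light chain counts was 3.42% to 8.67% in MR and 4.62% to 16.4% in MXL, and MR5 (8.67%) lay above MXL12 (8.30%).

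Each library had its own leading heavy chain segment, save Ighv1-53, which led in both MR3 and MR5. Ighv6-3 led in MR1 with 176 counts, or 6.40% of the heavy chain V counts. Ighv1-53 led in MR3 with 74 counts (10.03%) and in MR5 with 240 counts (8.71%). Ighv1-64 led in MR3_4 with 276 counts (11.1%), and Ighv9-3 in MR4_5 with 90 counts (8.00%). Among the MXL libraries the leaders were Ighv3-6 in MXL1 with 246 counts (18.6%), Ighv7-3 in MXL12 with 193 counts (13.9%), Ighv6-6 in MXL3_4 with 210 counts (9.06%) and Ighv9-4 in MXL_3 with 783 counts (11.5%). Ranked by FPKM, which scales for length, the leader changed only in MR3_4, to Ighv1-26. The leading share had a median of 8.71% in MR (6.40% to 11.1%) and 12.7% in MXL (9.06% to 18.6%), and the ranges overlapped.

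Kappa segments were led by a shared segment in 5 of 9 libraries. Igkv3-2 held 301 counts in MR1, 234 in MR3, 278 in MR4_5, 570 in MR5 and 322 in MXL12, which made 8.27%, 20.1%, 14.0%, 13.6% and 14.5% of their kappa V counts. The other leaders were Igkv1-117 in MR3_4 with 522 counts (15.4%), Igkv16-104 in MXL1 with 365 counts (17.9%), Igkv1-110 in MXL3_4 with 325 counts (11.6%) and Igkv5-43 in MXL_3 with 1118 counts (14.6%). The median leading share was 14.0% in MR and 14.5% in MXL. In every library the 3 most used kappa segments held 20.9% to 41.1% of the kappa V counts.

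No library was dominated by a single heavy chain or kappa segment. The effective number of segments (the inverse Simpson index, the number of equally used segments that would give the same evenness) was 19.8 to 32.5 for heavy chains in MR and 13.4 to 24.7 in MXL. For kappa it was 15.6 to 27.5 in MR and 13.8 to 19.8 in MXL. Drawn down to a common 738 heavy chain counts, the expected number of segments seen was 52.3 to 61.3 over the 9 libraries. The lowest effective numbers, for both chains, were those of MXL1.

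**Figure D2:**
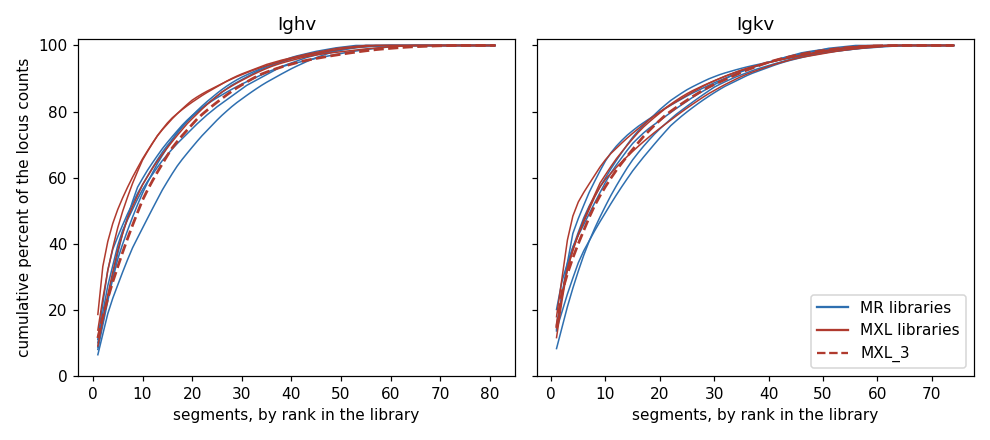
Cumulative percent of the locus counts (y axis) against segment rank within each library (x axis), for heavy chain (left) and kappa (right) segments, with 1 line a library. The lines of MR (blue) and MXL (red) libraries interleave, with leading shares of 6.40% to 18.6% for heavy chains, and the dashed line of MXL_3 lies among the others.

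Segment use was also compared pair by pair with the Morisita-Horn overlap, which is 1 for identical usage. Heavy chain overlap had a median of 0.54 over the 10 MR pairs, 0.44 over the 6 MXL pairs and 0.47 over the 20 mixed pairs. Kappa overlap had medians of 0.70, 0.66 and 0.65. The ranges within groups and between groups overlapped for both chains, and as pairs share libraries no test was made.

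Only part of the segments was detected in every library, and with 2015 V counts in MR3 a rarely used segment could be missed there. More than 3 counts were seen in all 9 libraries for 52 of 158 members, 18 of 81 heavy chain, 32 of 74 kappa and 2 of 3 lambda segments. Over these 52, the highest CPM was a median of 11.5 times the lowest, and under 5 times for 11 of them. The most even were Igkv14-126 (highest over lowest 2.28), Igkv5-39 (2.36), Igkv4-91 (2.46), Igkv6-20 (2.55) and Igkv3-2 (2.55). Igkv3-2 stayed between 218 and 570 counts while the kappa sum moved 6.84-fold, so its share fell to 3.57% in MXL_3, where it had 274 counts. The 5 most even were all kappa segments.

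Some even segments belong to known antibodies of B-1 cells, a self-renewing class of B cell found in body cavities and tissues. Ighv11-2 pairs with Igkv14-126, and Ighv12-3 with Igkv4-91, in antibodies of these cells that bind phosphatidylcholine. Igkv14-126 had 121, 99, 121, 107 and 139 counts in MR1, MR3, MR3_4, MR4_5 and MR5, and 87, 195, 108 and 159 in MXL1, MXL12, MXL3_4 and MXL_3. Ighv11-2 had 49, 45, 66, 82 and 60 counts in the MR libraries and 56, 133, 43 and 73 in the MXL libraries, in the same order. Both were highest in MXL12, and the groups overlapped. Igkv4-91 had 24 to 57 counts in every library, while Ighv12-3, with 18 counts in all, fell below the minimum. Ighv11-2 and Ighv12-3 were named after their values were seen, and Ighv11-2 shares 150-base windows with Ighv11-1 (98.7% identity). These values do not show which chains were paired in a cell.

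Other segments were concentrated in a single library. A single library held over 50% of the summed CPM of 56 members, and for 24 of these it was MXL_3. Without MXL_3 the number was 61. Over 90% was held by 1 library for 5 members, each of which reached the 20-count minimum only through that library, with at most 10 counts elsewhere. In all, 19 of 158 members had under 20 counts outside their highest library, and 152 kept at least 20 counts without MXL_3. They were Ighv1-43 with 310 counts in MXL_3 and at most 5 elsewhere, Ighv7-4 with 122 and at most 8, Igkv2-112 with 116 and 0 in the other 8, Igkv4-86 with 42 and at most 2, and Ighv15-2 with 42 in MR3_4 and at most 4 elsewhere. MXL_3 was the highest library for 56 of 158 members, against 28 for MR1, the next. Ighv9-4 and Igkv5-43 showed the same on a larger scale. Ighv9-4 had 783 counts in MXL_3 and at most 34 in any other library, and Igkv5-43 had 1118 there and at most 53 elsewhere. Igkv5-43 shared 29.5% of its 150-base windows with Igkv5-45.

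**Figure D3:**
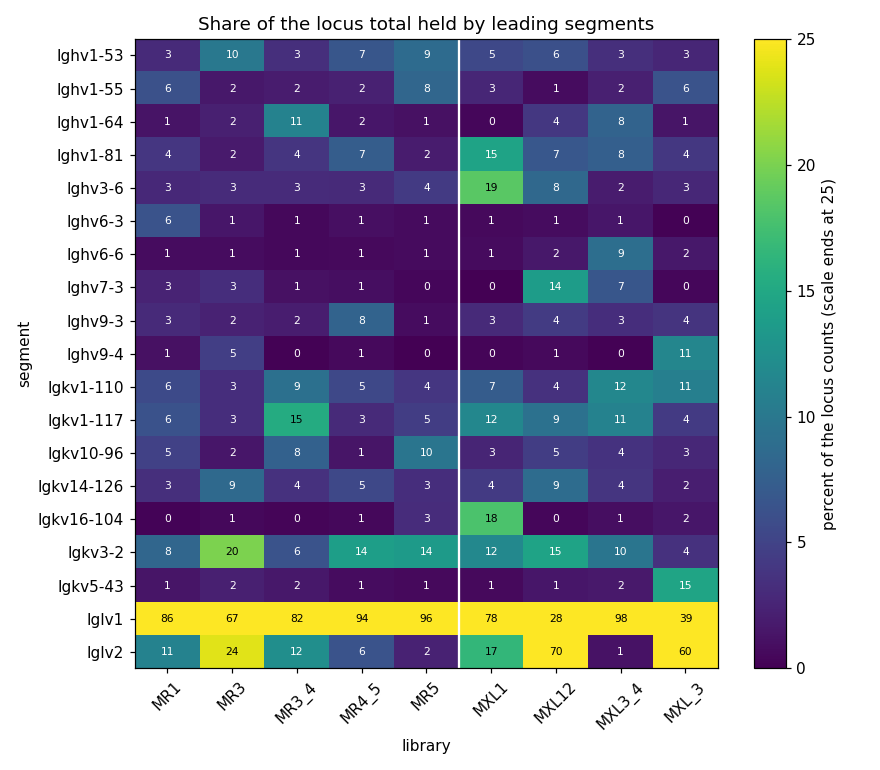
Percent of the counts of its locus (color and printed value) held by each leading or most abundant segment (rows) in each library (columns, MR left of the white line, MXL right). Several leading values are high in a single column, as for Ighv9-4 at 11.5% in MXL_3 and Igkv16-104 at 17.9% in MXL1, while Igkv3-2 is present across all columns.

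Lambda use differed between libraries in both level and segment. Iglv1 had 285, 76, 174, 160 and 615 counts in MR1, MR3, MR3_4, MR4_5 and MR5, and 118, 104, 625 and 1135 in MXL1, MXL12, MXL3_4 and MXL_3. Iglv2 had 37, 27, 26, 11 and 15 counts in the MR libraries and 25, 258, 8 and 1740 in the MXL libraries, in the same order. Iglv1 led in 7 libraries, and Iglv2 led in MXL12 (70.3% of lambda V counts) and MXL_3 (60.4%). Iglv3 had 0 to 11 counts everywhere.

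The constant segments of the lambda locus, and Iglj1 and Iglj3, moved with these only in part. Iglv1 usually joins Iglj1 or Iglj3, next to Iglc1 and Iglc3, and Iglv2 joins Iglj2, next to Iglc2. In MXL12 and MXL_3, Iglc2 held 71.5% and 64.1% of the lambda constant counts, against 11.9% to 54.4% in the other 7 libraries. The 54.4% was that of MR3, where Iglc2 had 86 counts beside 27 of Iglv2 and 76 of Iglv1. In MXL3_4, Iglc2 had 81 counts beside 8 of Iglv2. Iglc2 had 201 counts in MXL12 and 1318 in MXL_3. In MR5, the 615 Iglv1 counts stood beside 458 of Iglc1 and 67 of Iglj1. In MXL3_4, the 625 Iglv1 counts stood beside 336 of Iglc3 and 51 of Iglj3, with 100 of Iglc1 and 8 of Iglj1. Libraries of like Iglv1 level thus differed in the constant region beside it. Iglj2 had 9 counts in MXL12 and 1 in MXL_3. As Iglj2 lies within the coordinates of the Iglc2 gene, its counts cannot show whether it followed Iglv2. The J segments were added after the data were seen, and the lambda constant regions resemble each other, so reads may be split among them.

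**Figure D4:**
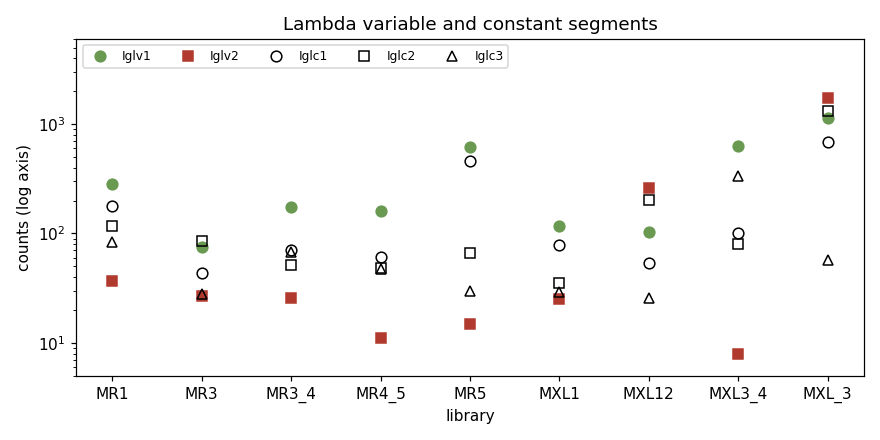
Counts on a log axis of Iglv1 and Iglv2 (filled) and of Iglc1, Iglc2 and Iglc3 (open) in each library. Iglv2 and Iglc2 are the 2 highest points in MXL12 (258 and 201) and in MXL_3 (1740 and 1318), while Iglc3 is high in MXL3_4 (336). Iglc2 is also the highest point in MR3 (86), where Iglv2 is low (27).

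Use was also described by family and map position. The Ighv1 family, the largest, with 42 members, held 45.9% (MXL12) to 66.0% (MR3_4) of the heavy chain counts. The Igkv1 family held 7.73% (MR3) to 27.1% (MR3_4) of the kappa counts, and the Igkv4 family, with 18 members, 8.58% (MXL_3) to 23.1% (MR4_5). All 81 heavy chain members lie on the minus strand, and 47 of 74 kappa members do. The 41 heavy chain segments nearest to the J segments held 40.7% to 58.6% of the counts of a library, and the 37 nearest kappa segments 37.3% to 60.6%. For both loci the ranges of MR and MXL overlapped.

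The MR libraries were then compared with the MXL libraries by edgeR's quasi-likelihood test over all genes. Of the 158 members, 91 passed the filter on low counts and were tested, and 67 were not, Ighv9-4 among them. A segment high in only some libraries could pass the filter through them. None of 91 passed an adjusted p of 0.05 with a 2-fold change (0% of the 20817 genes tested passed), while 5 had an unadjusted p under 0.05 and at least 2-fold, and DESeq2 also gave 0 members by adjusted p. By the unadjusted rule 1 member was higher in MR (0.428% of all genes tested) and 4 were lower (0.452%), or 1.10% and 4.40% of the members. The smallest adjusted p of any member in edgeR was 1.00. The median log2 fold change of the tested members was -0.28, beside -0.03 over all genes tested. Without MXL_3 it was 0.44, so its sign rested on that library.

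The 4 lower members were read by library. Iglv2 had a log2 fold change of -4.52 ± 1.30 (SE; edgeR unadjusted p = 0.0057, adjusted p = 1.00), with 1740 counts in MXL_3 and 258 in MXL12, while MXL1 and MXL3_4 had 25 and 8 against 11 to 37 in MR. Without MXL_3 its log2 fold change was -2.07 and no longer passed. Igkv5-43 had -3.18 ± 1.19 (unadjusted p = 0.0231), and 0.20 without MXL_3. It also no longer passed without MR4_5 (-2.99). Ighv6-6 had -2.71 ± 0.84 (unadjusted p = 0.0088), with 22, 6, 13, 7 and 20 counts in MR and 10, 22, 210 and 113 in MXL, where MXL3_4 and MXL_3 stood above all MR libraries. Without MXL3_4 its log2 fold change was -1.88, and it still passed the unadjusted rule. Ighv1-81 had -1.39 ± 0.56 (unadjusted p = 0.0310), with 110, 13, 95, 83 and 52 counts in MR and 192, 95, 175 and 274 in MXL, and only MXL12 within the MR range. It no longer passed without MR5 (-1.29), without MXL1 (-1.39) or without MXL_3 (-1.09).

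The single higher member was Igkv4-72, with 3.11 ± 1.16 (unadjusted p = 0.0225). It had 188, 6, 16, 96 and 26 counts in MR and 14, 6, 0 and 10 in MXL. MR1 and MR4_5 held most of it, and without MR1 it no longer passed, at 2.18. In 2 of 158 members, named after their values were seen, every MR library lay below every MXL library, and in 0 above. They were Igkv6-29, with 5, 0, 8, 12 and 12 counts in MR and 15 to 16 in MXL, and Ighv1-61, with 0 counts in all MR libraries and 2 to 17 in MXL. Ighv1-61 reached the minimum of 20 counts only through the MXL libraries, so its membership and its difference are not independent. Of the 91 tested members, 1.10% were apart in this way, beside 0.269% of all genes tested, with 0.259% of all genes apart in the other direction. Igkv6-29 shares 150-base windows with Igkv6-20.

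**Figure D5:**
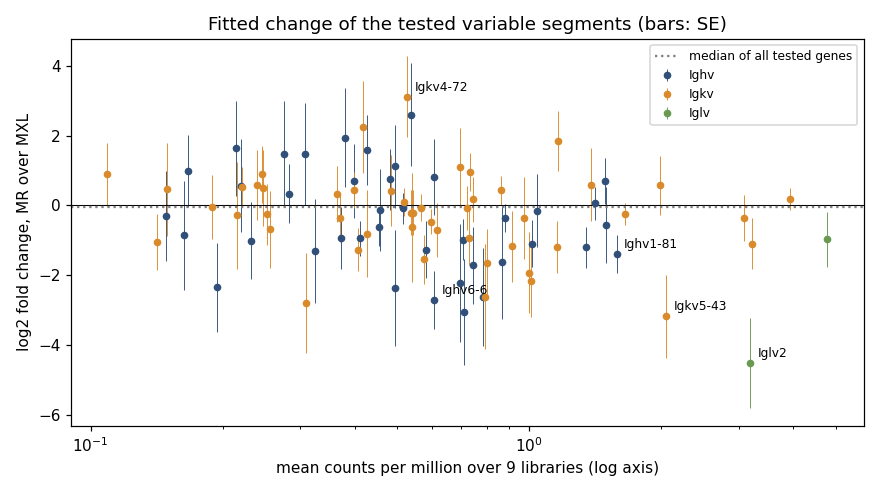
Log2 fold change of MR over MXL (y axis, bars SE) against mean CPM (x axis, log) for the 91 tested V segments, colored by locus. The 5 named segments passed the unadjusted rule, from Iglv2 at -4.52 to Igkv4-72 at 3.11, and no segment passed after adjustment.

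Constant regions and the J chain, which joins secreted IgM and IgA, gave a related picture. Of 12 tested, 1 was lower in MR by the unadjusted rule, beside 0.452% of all genes tested, and 0 were higher. Their median log2 fold change was -0.35. The lower gene was Iglc2, at -2.55 (edgeR unadjusted p = 0.0189, adjusted p = 1.00). It had 48 to 116 counts in MR, and 35, 201, 81 and 1318 in MXL1, MXL12, MXL3_4 and MXL_3, so only MXL12 and MXL_3 lay above the MR range. Ighm, the IgM constant region, had 7362 to 28881 counts and was highest in MXL_3, and Igha, the IgA constant region, had 626 to 7200, also highest in MXL_3. Ighd had 77 to 285 counts. The IgG constant regions had 172 to 487 (Ighg1), 208 to 431 (Ighg2b), 201 to 449 (Ighg2c) and 131 to 427 (Ighg3) counts in MR, and 131 to 632, 212 to 1267, 197 to 839 and 121 to 692 in MXL. Ighe was seen only in MR3_4, MR4_5 and MR5, with 16, 10 and 19 counts. Jchain had 368 to 5234 counts, lowest in MR3 and highest in MXL_3, as for the summed V level.

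Values of other marker lists are given beside the V segments, and their part in the V segment values was not tested. Of 12 tested B cell markers, 0 passed in either direction and the median log2 fold change was 0.16. The summed B cell list, in which Ebf1 also marks other cells, was 58.7 to 104 CPM in MR and 59.4 to 106 CPM in MXL, highest in MXL_3. The B cell markers Ms4a1 (52 counts) and Pax5 (42) in MXL_3 lay within the ranges of the other libraries, 34 to 163 and 22 to 108. Of 11 plasma cell markers 0 passed. Their summed level was 588 to 966 CPM in MR and 478 to 968 CPM in MXL, lowest in MXL_3. Most of this sum came from Sdc1 and Xbp1, which other skin cells also express. Sdc1, Xbp1 and Prdm1 had their lowest counts in MXL_3 (13495, 16260 and 1931) and Derl3 was tied lowest there (11), while Mzb1 (71) and Irf4 (3025) had their highest. Of 6 lymphoid tissue genes, 1, the chemokine receptor gene Ccr7, was lower in MR by the unadjusted rule, beside 0.452% of all genes tested. T cell (10 genes), recombination and mutation (2 tested), skeletal muscle (5) and neutrophil (5) lists had 0 calls each. Of 9 skin genes 2, the keratin genes Krt1 and Krt10, were higher in MR by the unadjusted rule, beside 0.428% of all genes tested. None of these genes passed by adjusted p. Ccr7, Krt1 and Krt10 were named after their values were seen. Summed skeletal muscle markers reached 10451 CPM in MXL_3, the highest of the 9 libraries, beside 349 to 7979 CPM in the others. The next highest, 7979 CPM, was in MR3, which had the lowest summed V level (26.0 CPM). The skin markers Krt5, Krt14, Col1a1 and Col1a2 were abundant in every library.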

How the data were processed

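Back skin RNA was sequenced in 9 libraries by poly(A) selected, paired-end RNA-seq. Raw whole-number read counts for each gene, and FPKM values, are as the authors deposited them. The submitters' processing notes name HISAT, StringTie, DESeq2 and the build mm10, and whether counting used strand is not given in the sources used here. Another 9 per-library columns, beside the FPKM values, duplicate the counts exactly and were left unused. All 158 members had GENCODE M21 coordinates equal to those in the table.

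The test was edgeR 4.0.16 under R 4.3.3 (filterByExpr, TMM, robust quasi-likelihood test, Benjamini-Hochberg adjustment over all genes tested, no covariate). Calls needed p under 0.05 and a 2-fold change. The script was tested on simulated counts. Usage was computed from member counts, and shares, effective numbers and overlaps are descriptions without a test. A floor of 3 counts was 0.0377 to 0.0402 CPM, and reflects counting error alone, as PCR duplicates are not separate molecules. The members and lists were chosen with earlier results of these data known. Named segments were the leaders of each locus in each library, the 10 with the highest mean CPM, up to 10 per direction passing the unadjusted rule, the lambda segments, the 5 largest held over 90% by 1 library, the 5 most even, and 3 on each side of the 20-count minimum. Those just inside were Ighv5-2, Igkv4-62 and Igkv4-51 (21, 22 and 23 counts), and just outside were Ighv1-62-3, Ighv3-3 and Igkv4-79 (19 each). Alternatives were DESeq2 1.42.0, DESeq2 size factors, other filters, limma 3.58.1 on log2(FPKM + 1), leaving out each library and a block on shared column codes. Promoter and recombination signal sequences were not analysed here.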

Additional observations from a re-analysis of the deposited data

Results flagged for a closer look

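A library that stood apart from the rest of its group by Dixon's ratio was found in 7 of 62 comparisons of 31 measures in 2 groups. Chance alone flags about 1 in 20 groups, but that rate does not apply here, because most of the segments were included for leading a library, and in 5 of the 7 cases the library that stood apart is the one the segment led. In the MR group, MR1 stood apart in Ighv6-3 (ratio 0.8979, 176 counts against 11 to 19), MR5 in Ighv1-53 (0.8761, 240 counts) and in Igkv16-104 (0.9025, 135 counts), MR3_4 in Ighv1-64 (0.8202, 276 counts) and MR4_5 in Iglv3 (0.8184, 0 counts against 9 to 11). In the MXL group, MXL_3 stood apart in Ighv9-4 (0.9537, 783 counts) and in Igkv5-43 (0.8386, 1118 counts). For these ratios the level of a segment was taken as log2(CPM + 0.5). Iglv3 reached at most 0.146 CPM in any library, below the added 0.5, so its ratio rests on few counts. The summed V level of MXL_3 did not pass this rule in its group of 4.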

How the results depend on the processing

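No member passed an adjusted p of 0.05 under any alternative. The number of members higher in MR by the unadjusted rule, 1 in the edgeR fit, was 2 with DESeq2's Wald test (2.20% of members tested, beside 0.528% of all genes in that fit), 6 with no filter on low counts (3.80% beside 1.01%), and 0 with at least 10 counts in every library, with limma on log2(FPKM + 1) and in both fits of the 6 libraries with shared column codes. The number lower, 4, was 10 with no filter (6.33% beside 1.29%) and 2 with limma (2.20% beside 0.0288%). The fit with no filter took in 34637 genes without the minimum of 20 counts set for members, against 20817 in the main fit. Its shares of members and of all genes are therefore not alike. Members could also enter it through the group where they were high, as 18 of 158 had under 20 counts in MR and 23 in MXL. Leaving out each library gave 0 (without MR1) to 3 (without MR3, MR4_5 or MXL_3) higher and 2 to 14 lower, with 14 without MXL1 (13.2% beside 0.742% of all genes), 11 without MXL12 (10.5% beside 0.450%), 7 without MXL3_4 (6.73% beside 0.636%) and 2 without MXL_3 (2.15% beside 0.601%), and the cause was not tested. The 3 higher members were 3.53% without MR3, 3.49% without MR4_5 and 3.23% without MXL_3, beside 0.439%, 0.331% and 0.798% of all genes. The median log2 fold change of the members lay between -0.49 and 0.44 on leaving out libraries, and was above 0 only without MXL_3. The log2 fold change of Igkv5-43 ranged from -3.58 to 0.20, the latter without MXL_3. Shared column codes gave no sign of marking pairs. The deviations of same-code libraries correlated at 0.14, 0.09 and -0.08, beside -0.14 to 0.39 for libraries of different codes. So few correlations cannot exclude that the codes mark pairs. With a replicate block on these codes 0 members were higher and 1 was lower (1.12% beside 0.233% of all genes). Without the block on the same 6 libraries, a fit chosen after seeing the data, the numbers were 0 and 5 (5.62% beside 0.407%). Among members with at least 100 counts, 36 were held over 50% by 1 library and 3 over 90%, which follows from fewer members. Without MXL_3, also chosen after seeing the data, these numbers over all members were 61 and 4. Shares of leading segments and summed V levels moved by less than the spread between libraries under every alternative run. The sign of the difference in summed level changed without MR1, MR3_4 or MR5. For the leading kappa share, the difference of medians (MR minus MXL) was -0.55 percentage points, and 0.16 without MR1 or without MR5. At 2015 to 17392 V counts a library, segments with few counts could not be told from absent ones, and intervals between libraries are wide.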
